A study of Mus musculus with 2 samples.

Results

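Cytosolic ribosomal protein genes were compared between a GFP and a NeuroD1 library of mouse endothelial cells. The members are the 83 protein-coding rows, of 53465 genes in the deposited table, whose symbol is Rpl or Rps with a number, or is Rplp0, Rplp1, Rplp2 or Rpsa. Of these, 51 encode proteins of the large subunit and 32 proteins of the small subunit. Both groups were tie2-cre mice of the C57Bl/6 strain, in which the Tie2 promoter drives Cre recombinase, and 1 library was made per group, 2 in all. The GFP group received GFP and the NeuroD1 group NeuroD1, which encodes a neurogenic transcription factor, and the series concerns NeuroD1 delivery in ischemic stroke. Per the labels, endothelial cells of 3 mice were collected and 10000 cells were lysed; age, vector, dose, time after treatment and whether these animals had a stroke are not in the labels. The Tie2 promoter is also known to be active in cells of the blood lineage.

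The ribosome translates messenger RNA into protein. Its small subunit reads the message and its large subunit joins the amino acids, and each subunit holds ribosomal RNA and a fixed set of proteins, most of them in a single copy. The messages of these proteins usually rank among the most abundant in a cell, and their translation is controlled as a group through the mTORC1 kinase and the RNA-binding protein LARP1. Because these short messages are often copied back into the genome, each ribosomal protein gene usually has processed pseudogenes, intronless copies that closely match its coding sequence.

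Such copies can bear on most values here, since a read from a shared stretch cannot be placed by its sequence. By sequence match to GENCODE M21 transcripts, 1750 pseudogenes in the table belonged to 81 of the 83 genes, with a median of 16 and up to 137 per gene. Their median identity to the gene over the aligned part was 91.2%. The first 60 bases of the coding sequence show how close a copy can be for 4 genes that differed between the libraries beyond counting error. Capitals mark the base at which gene and copy differ, where they do. Each gene is followed by a copy picked for the fewest mismatches in this same stretch, so these copies do not stand for the others.
Rpl32: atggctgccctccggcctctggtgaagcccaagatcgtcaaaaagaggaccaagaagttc
Rpl32l: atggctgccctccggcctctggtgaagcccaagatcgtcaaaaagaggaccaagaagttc
Rpl21: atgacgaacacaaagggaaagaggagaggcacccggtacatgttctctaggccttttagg
Gm10095: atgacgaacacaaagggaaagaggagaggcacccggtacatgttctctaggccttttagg
Rps13: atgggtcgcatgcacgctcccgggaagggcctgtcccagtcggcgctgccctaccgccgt
Rps13-ps2: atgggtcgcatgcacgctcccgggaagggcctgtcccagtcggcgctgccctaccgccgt
Rps9: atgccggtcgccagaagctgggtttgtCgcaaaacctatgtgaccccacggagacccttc
Gm5905: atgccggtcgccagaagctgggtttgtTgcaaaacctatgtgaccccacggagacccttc
No base differed within the Rpl32, Rpl21 and Rps13 pairs, and 1 differed between Rps9 and Gm5905. The stretch was present without a mismatch in 2 of 17 pseudogenes of Rpl32, 18 of 108 of Rpl21, 4 of 13 of Rps13 and neither of the 2 of Rps9. In GRCm38, Rpl32 lies on chromosome 6 (115805505 to 115808747, minus strand), Rpl21 on chromosome 5 (146832890 to 146837032, plus strand), Rps13 on chromosome 7 (116331505 to 116334195, minus strand) and Rps9 on chromosome 7 (3703993 to 3706897, plus strand). The copies Rpl32l (chromosome 10, 20208490 to 20208888), Gm10095 (chromosome 12, 86845778 to 86846467), Rps13-ps2 (chromosome 7, 88530446 to 88530898) and Gm5905 (chromosome 7, 141177885 to 141178464) lie elsewhere.

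Values are FPKM, fragments scaled to exon length and by a factor for each library. Depth was recovered from them: within a library, FPKM times merged exon length comes in whole steps, and the recovered reads summed to 2011130 for GFP against 2001426 for NeuroD1. The steps themselves imply scaling totals of about 2208980 and 1950270 reads, so the recovered reads were 0.910 and 1.03 times those totals, and the FPKM scaling does not follow the recovered reads. For 73 of the 83 genes the reads came out whole in both libraries; the other 10 have no interval. 1 read weighed 1.13 times more in FPKM in NeuroD1 than in GFP, so a gene with equal reads has an FPKM ratio of 1.13. Each ratio of NeuroD1 over GFP has an exact Clopper-Pearson 95% interval, which takes in the error of counting alone. As each group is 1 library, differences lack a replicate check and carry no p-value. Neurod1 itself stood at 0.664 FPKM (4 reads) in GFP against 182 FPKM (970 reads) in NeuroD1, in the direction of the labels. The endothelial markers were present, with a summed level over 10 markers of 122.7 FPKM in GFP and 122.0 FPKM in NeuroD1. Of markers of other cells, 6 neuron markers summed to 44.5 and 55.3 FPKM, 5 astrocyte markers to 16.1 and 11.8 FPKM, 4 oligodendrocyte markers to 10.6 and 11.6 FPKM, 5 microglia markers to 18.4 and 16.4 FPKM, 5 mural markers to 18.0 and 17.1 FPKM, and 5 red cell markers to 37.7 and 25.6 FPKM. No marker was at 0 in either library, but 97.7% of the 1515 chemoreceptor genes described below were also above 0 in GFP, and 96.0% in NeuroD1. A value above 0 therefore does not show that a cell type was present. Above the chemoreceptor 95th percentile in both libraries stood 8 endothelial, 2 neuron, 0 astrocyte, 1 oligodendrocyte, 1 microglia, 1 mural and 2 red cell markers. The neuron sum holds Rbfox3 at 26.8 and 31.0 FPKM. The mural sum holds Acta2 at 7.63 and 10.9 FPKM beside Kcnj8 at 3.38 and 0.604 FPKM (19 and 3 reads, ratio 0.179, interval 0.0339 to 0.608), and the median difference of the 5 mural markers, in log2(FPKM + 1), was -0.30. Of the red cell markers, Hbb-bs stood at 13.6 and 4.01 FPKM (23 and 6 reads, ratio 0.295, interval 0.0984 to 0.746). It was lower by the threshold set out below, while 2 of the 5 red cell markers, Hba-a1 and Alas2, had higher values in NeuroD1. The part of other cells in the results below was not tested. In such bulk samples, fewer cells of a type and less RNA per cell cannot be told apart.

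Ribosomal protein genes had modest FPKM values in both libraries. The median gene stood at 4.44 FPKM in GFP against 4.92 FPKM in NeuroD1, against 3.10 and 2.98 FPKM for 22040 protein-coding genes. The range was 0.534 to 23.3 FPKM in GFP and 0.506 to 36.0 FPKM in NeuroD1, and no gene was at 0. Ranked among protein-coding genes, the median member lay at percentile 70.8 in GFP and 76.6 in NeuroD1, and 18 and 23 of the 83 lay in the top 10%. Below the protein-coding median lay 23 members in GFP and 11 in NeuroD1. As a group without a known role in endothelium, 1515 chemoreceptor genes (receptors of smell, taste and pheromones) had a median of 1.54 and 1.40 FPKM and a 95th percentile of 4.38 and 4.79 FPKM. Above that percentile stood 42 ribosomal protein genes in GFP, 43 in NeuroD1 and 33 in both. Rps12, a small subunit protein, was the 1 member below the chemoreceptor median in both libraries, at 0.670 FPKM (3 reads) in GFP against 0.506 FPKM (2 reads) in NeuroD1.

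**Figure D1:**
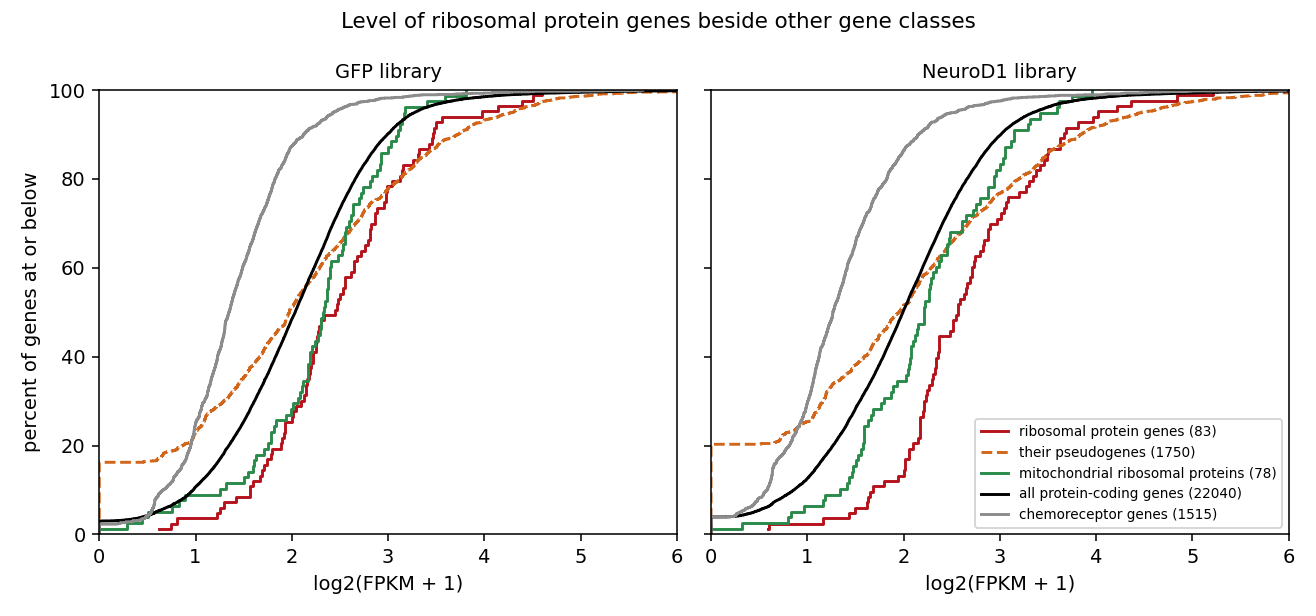
Percent of genes (vertical axis) at or below a given log2(FPKM + 1) (horizontal axis), 1 panel per library, for ribosomal protein genes, their pseudogenes, mitochondrial ribosomal proteins, all protein-coding genes and chemoreceptor genes, with the number of genes in brackets. The curve of the 83 ribosomal protein genes lies to the right of that of all protein-coding genes, with medians of 4.44 and 4.92 FPKM against 3.10 and 2.98 FPKM.

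The pseudogenes of these genes together held several times the reads of the genes themselves. In GFP the 73 genes with recovered reads held 1591 reads and the pseudogenes of all members 9265, a ratio of 5.82. In NeuroD1 they held 1642 and 9241 reads, a ratio of 5.63. The pseudogene sums include copies of the 10 genes without recovered reads, among them Rpl17, whose copies held 369 and 379. Both ratios are therefore higher than they would be for the 73 families alone. In 61 of the 73 families the pseudogenes together had more reads than the gene in both libraries. Per length, the median pseudogene stood at 2.93 FPKM in GFP against 2.87 FPKM in NeuroD1, near the protein-coding median, whereas 7298 processed pseudogenes of other genes had a median of 1.75 and 1.6 FPKM. For Rpl21, a large subunit protein, the gene held 42 reads in GFP against 20 in NeuroD1, and its pseudogenes 867 and 778. A single copy of it, Gm8526 (GRCm38 chromosome 13, 88478580 to 88479054, plus strand), held 220 reads in GFP and 268 in NeuroD1 and stood at 209.7 and 289.3 FPKM. Its identity to Rpl21 over the aligned part was 94.2%. Rpl7a, with the most pseudogenes, had 8 and 11 reads of its own. Among the exceptions were Rpl41, with 60 and 63 reads against 14 and 12 in its 4 pseudogenes, Rplp2, with 31 and 38 reads against 2 and 2, and Rps9, with 50 and 72 reads against 35 and 34. The sources used here do not say how reads that map to several places were treated.

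**Figure D2:**
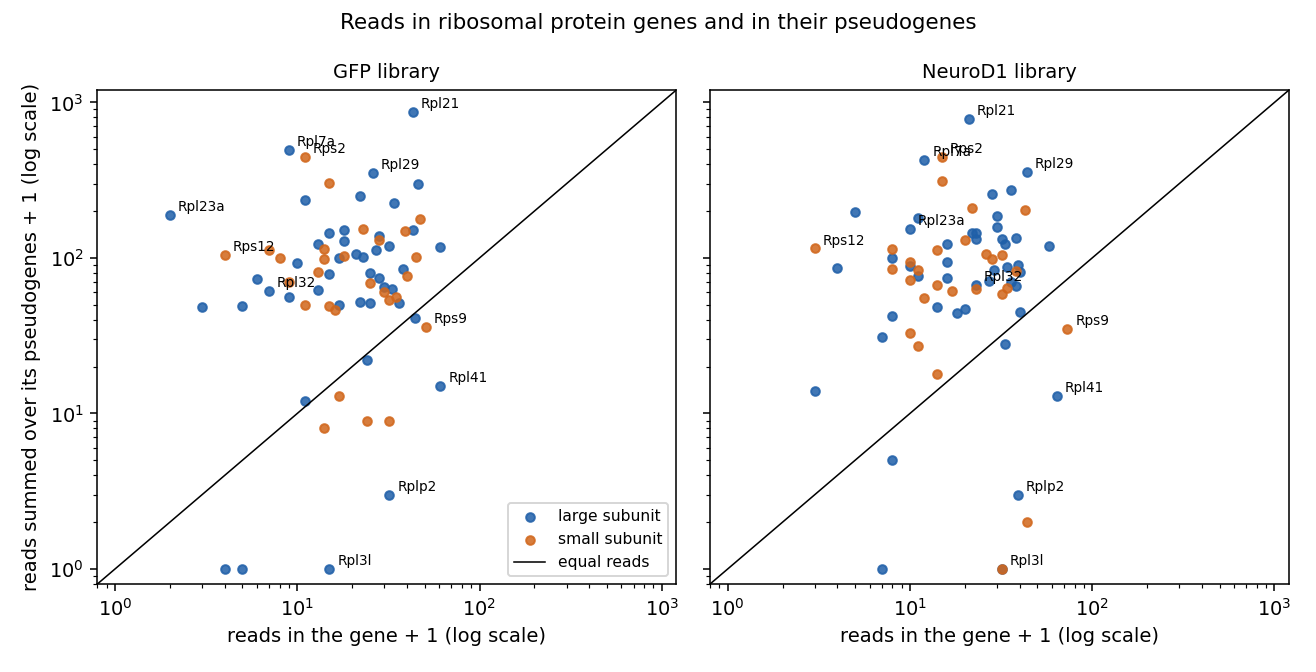
Reads in each gene plus 1 (horizontal axis, log scale) and reads summed over its pseudogenes plus 1 (vertical axis, log scale) for the 73 genes with recovered reads, 1 panel per library; points are coloured by subunit and the line marks equal reads. In 61 families the point lies above the line in both panels, with Rpl21 highest at 867 and 778 pseudogene reads, while Rpl41, Rplp2 and Rps9 lie below it.

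The share of a message that is also found elsewhere was measured as the percent of its 50-base stretches that occur exactly in a transcript of another gene, on either strand. The median over the 83 messages was 57.4%, with a range from 0% to 98.6%, and 52 genes were above 50%. Rpl3l and Rpl39l shared no such stretch. Rps12, the lowest member by mean FPKM, shared 90.1%, Rpl23a 85.7%, Rps13 83.0% and Rpl32 30.6%. Across the 83 genes, which are not independent replicates, this percent and log2 of mean FPKM plus 1 gave a Pearson r of -0.19, with a Spearman rho of -0.23. The sources used here do not give the read length, so 50 bases stand for no known read length. Exons of 37 members also overlapped an exon of another gene, and in 14 the overlap exceeded 10% of the exon bases.

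FPKM also rests on the annotated length of a gene. The merged exons used as gene length had a median of 1770 bases, against 729 bases for the principal messenger RNA, and were more than 2 times the message in 50 of 83 genes. Rplp1 reached its 21.8 and 36.0 FPKM from 24 and 35 reads over 499 bases. Rps19, whose loss causes Diamond-Blackfan anaemia, had more reads, 46 and 42, but over 4685 bases, and stood at 4.44 and 4.60 FPKM. Rps24, with 27 reads in each library over 6256 bases, stood at 1.95 and 2.21 FPKM. Across the 73 genes, log2 reads and log2 exon length had a Pearson r of 0.484 with a Spearman rho of 0.485, and across 20003 protein-coding genes 0.752 and 0.774, as a description with no test. The order of members by FPKM therefore differs from their order by reads.

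**Figure D3:**
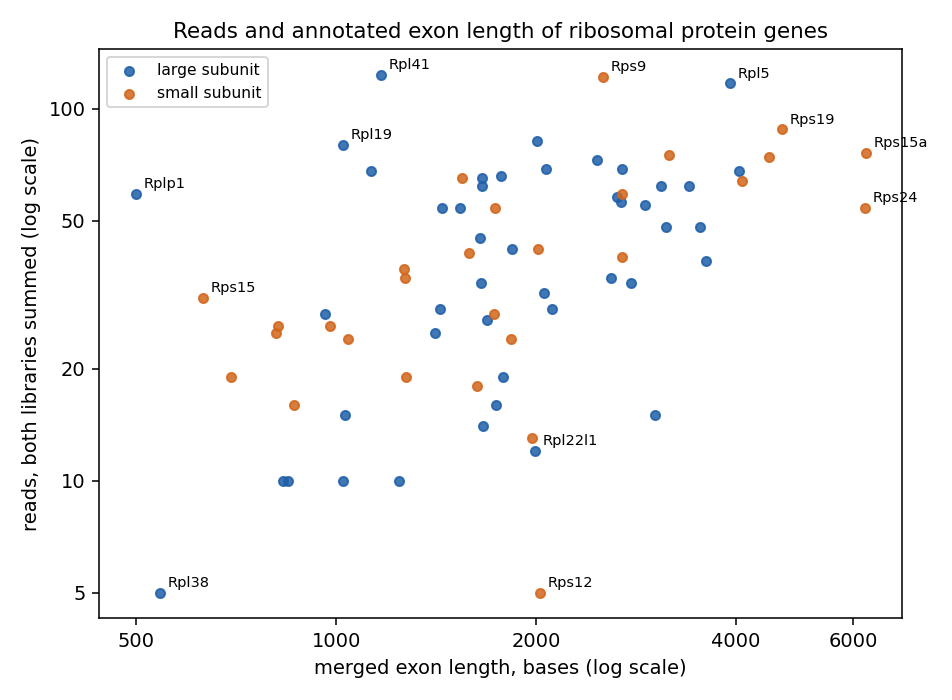
Merged exon length in bases (horizontal axis, log scale) and reads summed over both libraries (vertical axis, log scale) for the 73 genes with recovered reads, coloured by subunit. Genes at similar read numbers spread widely in length, from Rplp1 at 499 bases to Rps15a at 6270 bases.

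The comparison of NeuroD1 with GFP asks whether ribosomal protein genes differed between the treatments. Each difference is taken as NeuroD1 minus GFP on the log2(FPKM + 1) scale, on which low genes change less than in FPKM. Their median was 0.15 over the 83 genes, with 53 above 0 and 30 below, against -0.0068 over all protein-coding genes, of which 47.4% were above 0. With equal summed FPKM of all or of protein-coding genes, 39 and 36 of the 83 were above 0. In reads, 38 of 73 genes had more in NeuroD1, 31 fewer and 4 the same number, and the median FPKM ratio over the 83 genes was 1.13, the ratio that equal reads give. Within 1.5 times either way lay 47 of the 83 genes, while 25 were at least 1.5 times higher and 11 at least 1.5 times lower. The direction of the median depended on scaling. After scaling to equal summed FPKM it was -0.044, and the median of all protein-coding genes moved to -0.18, so that the members' median lay 0.14 above it, against 0.16 as deposited. The 2 libraries' log2(FPKM + 1) values for the 83 genes gave a Pearson r of 0.784, with a Spearman rho of 0.751.

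Summed over 73 genes, 1591 and 1642 reads gave a pooled FPKM ratio of 1.17 (interval 1.09 to 1.25), next to 1.14 (1.136 to 1.141) for protein-coding genes, 1.01 (1.005 to 1.012) for these without the 11 at or above 1000 FPKM in either library, and 1.13 (1.098 to 1.16) for the pseudogenes. The pooled ratio of the members was 0.992 (0.926 to 1.06) after scaling to equal summed FPKM. For the large subunit the pooled ratio was 1.21 (1.11 to 1.32) and for the small subunit 1.099 (0.980 to 1.23), and these intervals overlapped. The median difference was 0.24 for large and 0.099 for small subunit genes, with 31 of 51 and 22 of 32 above 0. After scaling to equal summed FPKM these were 0.032 and -0.073, with 27 of 51 and 12 of 32 above 0, so the small subunit turned in direction. The share of the members in protein-coding signal depended on those 11 genes and on the unit. It was 0.0612% in GFP and 0.0591% in NeuroD1 by FPKM, and 0.0905% and 0.0929% by reads. Without the 11 genes it was 0.526% and 0.604% by FPKM, and 0.212% (interval 0.202 to 0.223) and 0.246% (0.234 to 0.258) by reads, so the order of the libraries turned between the first of these measures and the others. Large subunit genes held 61.7% and 64.0% of the members' reads.

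**Figure D4:**
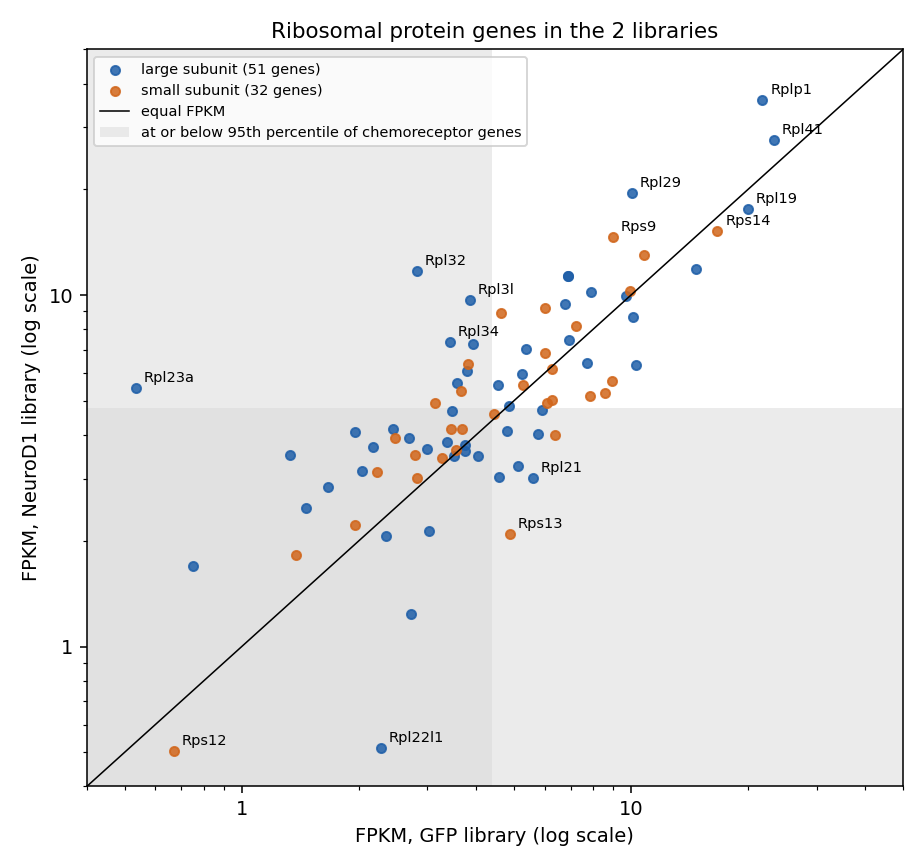
FPKM in GFP (horizontal axis, log scale) and NeuroD1 (vertical axis, log scale) for the 83 ribosomal protein genes, coloured by subunit; the line marks equal FPKM and grey marks values at or below the 95th percentile of chemoreceptor genes, 4.38 and 4.79 FPKM. Rpl32, Rpl23a and Rpl3l stand apart above the line, and 33 genes lie outside the grey area on both axes.

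A gene was called where its log2(FPKM + 1) difference reached 1 and 1 of its 2 values, or both, reached 5 FPKM. By this threshold 3 members were higher in NeuroD1 and none was lower. The minimum left 46 of the 83 genes, of which the 3 are 6.52%, and of 6408 protein-coding genes past it 3.25% were higher and 3.31% lower. All 3 reached the minimum in NeuroD1 alone, where they were high, so that share supports no statement about the members, and none was called with 5 FPKM required in both libraries. Rpl32, a large subunit protein, stood at 2.82 FPKM in GFP (6 reads) against 11.7 FPKM in NeuroD1 (22 reads), a ratio of 4.15 (interval 1.63 to 12.5). Its 17 pseudogenes held 60 and 66 reads (ratio 1.25, interval 0.865 to 1.80), and 20% of its exon bases overlapped other genes, among them Cand2 on the opposite strand. Rpl23a, which lies at the exit of the peptide tunnel and is encoded on chromosome 11 (78180932 to 78183584, minus strand), stood at 0.534 FPKM (1 read) and 5.45 FPKM (9 reads), a ratio of 10.2 (interval 1.41 to 447). Its 76 pseudogenes held 189 and 153 reads, and 62.3% of its exon bases overlapped other genes, chiefly Tlcd1 on the opposite strand. The sources used here do not say whether the counting used strand, so reads of such partners cannot be told apart. Rpl3l, the paralog of Rpl3 used in heart and skeletal muscle, stood at 3.86 FPKM (14 reads) and 9.67 FPKM (31 reads), a ratio of 2.51 (interval 1.30 to 5.1). It lies on chromosome 17 (24727820 to 24736143, plus strand) and had no pseudogene, no shared 50-base stretch and no overlapping exon. After scaling to equal summed FPKM, Rpl32 was the 1 member still higher, since Rpl3l was at 0.92, short of the threshold, and Rpl23a was under the FPKM minimum.

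By counting error, 6 members had an interval above 1 and 2 an interval below it. Among the 56 members with at least 20 reads, 5 (8.93%) were above and 2 (3.57%) below, and of 14791 protein-coding genes with as many reads 5.93% were above and 6.22% below. After scaling to equal summed FPKM, 4 of all members with recovered reads were above (Rpl23a, Rpl32, Rpl34 and Rpl3l) and 5 below, and the intervals of Rpl29 and Rps9 included 1. Beside Rpl32, Rpl23a and Rpl3l, the higher ones were Rpl34, at 3.43 and 7.37 FPKM (20 and 38 reads, ratio 2.15, interval 1.22 to 3.90), Rpl29, at 10.1 and 19.6 FPKM (25 and 43 reads, ratio 1.95, interval 1.16 to 3.33), and Rps9, at 8.97 and 14.6 FPKM (50 and 72 reads, ratio 1.63, interval 1.12 to 2.39). Rps9 sits near the entry of the message into the small subunit. The lower ones were Rps13, at 4.88 and 2.10 FPKM (29 and 11 reads, ratio 0.430, interval 0.194 to 0.886), and Rpl21, at 5.59 and 3.02 FPKM (ratio 0.539, interval 0.3 to 0.939). The pseudogenes of these genes had intervals that included 1, with ratios of 0.960 for Rpl34, 1.14 for Rpl29, 1.10 for Rps9, 1.04 for Rps13 and 1.02 for Rpl21. Over the 56 members, squared deviations of reads from an FPKM ratio of 1 averaged 2.15 times those of counting alone. They averaged 1.90 times over 14780 protein-coding genes with at least 20 reads and under 1000 FPKM. This measure also takes in any shift that the genes share. The intervals are narrower than these deviations between the libraries.

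**Figure D5:**
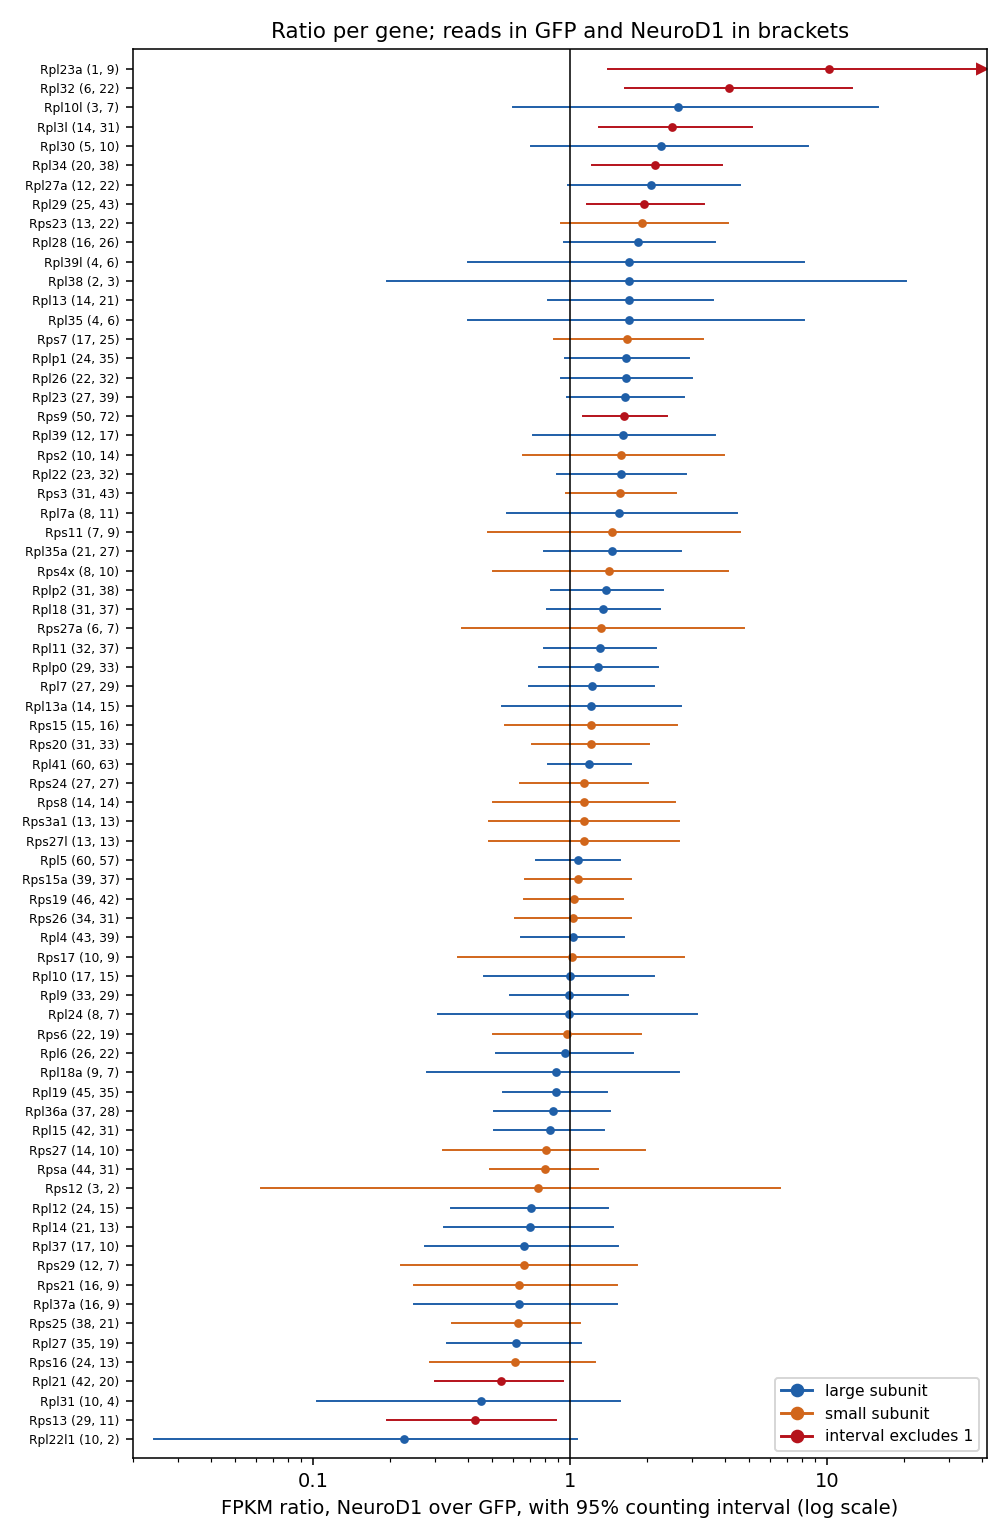
FPKM ratio of NeuroD1 over GFP with its 95% counting interval (horizontal axis, log scale) for the genes with recovered reads, 1 gene left out, ordered by ratio, with the reads in GFP and NeuroD1 in brackets. The 8 red genes, 6 above and 2 below, have an interval that excludes 1, and the arrow marks an upper limit for Rpl23a beyond the axis.

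The 8 members with the highest mean FPKM include Rplp1, Rpl29 and Rps9, described elsewhere, and 5 others. Rpl41, which encodes a very short basic peptide of the large subunit, stood at 23.3 and 27.7 FPKM (60 and 63 reads, ratio 1.19, interval 0.822 to 1.72). Rpl19, at 19.9 and 17.6 FPKM (45 and 35 reads, ratio 0.881, interval 0.55 to 1.40), had the lower value in NeuroD1. Rps15 stood at 10.8 and 13.0 FPKM, from 15 and 16 reads. Rps14, lost in one form of myelodysplastic syndrome, at 16.7 and 15.2 FPKM, and Rpl8, at 14.7 and 11.9 FPKM, had no recovered reads. None of these 5 genes had a difference past the threshold. The intervals of Rpl41, Rpl19 and Rps15 included 1, and Rps14 and Rpl8 have no interval. With equal summed FPKM of protein-coding genes, the differences of Rpl41 and Rps15 turned to -0.022 and -8.1e-05.

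The stalk proteins recruit translation factors to the large subunit, and all 3 had higher values in NeuroD1, also after scaling to equal summed FPKM of all or of protein-coding genes. Rplp0, the base of the stalk, stood at 7.91 and 10.2 FPKM (29 and 33 reads, ratio 1.29, interval 0.759 to 2.20). Rplp1, the member with the highest FPKM in NeuroD1, stood at 21.8 and 36.0 FPKM (24 and 35 reads, ratio 1.65, interval 0.955 to 2.90). Its partner Rplp2 stood at 6.77 and 9.4 FPKM (31 and 38 reads, ratio 1.39, interval 0.841 to 2.31). Each interval included 1. Pooled over the 3 genes, 84 and 106 reads gave a ratio of 1.43 (interval 1.06 to 1.93), an interval that includes the 1.13 of equal reads, and 1.21 (0.903 to 1.64) after scaling to equal summed FPKM. Rpsa, a small subunit protein also known as a laminin receptor, ran the other way in value, at 6.28 and 5.01 FPKM (44 and 31 reads, ratio 0.798, interval 0.487 to 1.29).

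Rpl5 and Rpl11, which carry the 5S ribosomal RNA and with Rpl23 can bind the p53 regulator Mdm2, stood at 6.93 and 7.46 FPKM (60 and 57 reads) and at 5.37 and 7.03 FPKM (32 and 37 reads). Rpl23 stood at 6.91 and 11.3 FPKM (27 and 39 reads, ratio 1.64, interval 0.976 to 2.78). Each of the 3 was above 0 as deposited, and Rpl5 was below 0 after scaling to equal summed FPKM. Of 6 genes of the message channel and decoding region, all were above 0, with a median of 0.38, and 5 were above 0 after scaling to equal summed FPKM, with a median of 0.21. Rps23, a decoding protein, stood at 4.64 and 8.90 FPKM (13 and 22 reads, interval 0.924 to 4.14), and Rps3, which lies at the message entry, at 3.13 and 4.92 FPKM (31 and 43 reads, interval 0.967 to 2.58). None of the 6 passed the threshold. Of 8 genes along the peptide exit tunnel, 6 were above 0 (4 after that scaling), with a median of 0.33, and Rpl23a alone passed it. Rpl4, whose loop lines the tunnel, stood at 9.70 and 9.96 FPKM (43 and 39 reads). The 20 genes mutated in Diamond-Blackfan anaemia, a failure of red cell formation, had a median of 0.067 with 14 above 0 and none past the threshold, and after that scaling -0.12 with 7 above 0. Rps6, the target of the S6 kinases below mTORC1, stood at 6.28 and 6.14 FPKM (22 and 19 reads).

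The 6 paralogs whose symbol carries an l after the number are variants of core proteins. Their median difference was 0.36, with 4 above 0, of which Rps27l was below 0 after that scaling. Beside Rpl3l, the testis paralogs Rpl10l and Rpl39l stood at 1.33 and 3.51 FPKM (3 and 7 reads) and at 2.18 and 3.70 FPKM (4 and 6 reads), values below the 95th percentile of chemoreceptor genes in both libraries. Rpl22l1, the paralog of Rpl22, was the lowest of all members in ratio, at 2.28 FPKM (10 reads) in GFP against 0.516 FPKM (2 reads) in NeuroD1 (ratio 0.227, interval 0.0241 to 1.06). Rpl22 itself stood at 3.58 and 5.64 FPKM (23 and 32 reads, ratio 1.58, interval 0.894 to 2.82). Rps27l, a p53 target, had 13 reads in each library, at 7.21 and 8.17 FPKM. Rpl7l1 stood at 5.91 and 4.72 FPKM with no recovered reads.

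Beyond the naming rule, the ribosome also holds the product of Fau, made as a fusion with a ubiquitin-like protein, the scaffold Rack1, and the paralog Rpl36al. Fau stood at 5.55 and 10.7 FPKM, a difference of 0.84 for which reads were not recovered. Rack1 stood at 2.92 and 2.604 FPKM (33 and 26 reads) and Rpl36al at 0.669 and 1.52 FPKM (2 and 4 reads). None of these passed the threshold.

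Genes that act with the ribosome were taken from lists by function. After scaling to equal summed FPKM, the medians of the elongation, initiation and mTORC1 lists given here turned below 0, at -0.00042, -0.16 and -0.17. Those of the biogenesis and mitochondrial lists were -0.21 with 6 above 0 and -0.18 with 19 above 0. The 8 elongation factors and related genes, which are regulated like ribosomal proteins, had a median of 0.21 with 4 above 0 and 4 below, and none past the threshold. Among them, Eef2, which moves the ribosome along the message, stood at 12.7 and 19.6 FPKM (93 and 127 reads, ratio 1.55, interval 1.17 to 2.04). Eef1a1, which delivers transfer RNA, stood at 11.1 and 17.3 FPKM (61 and 84 reads, ratio 1.56, interval 1.11 to 2.21), and Eif5a at 9.33 and 16.4 FPKM (49 and 76 reads, ratio 1.76, interval 1.21 to 2.57). Tpt1 ran the other way, at 12.4 and 7.97 FPKM (65 and 37 reads, ratio 0.645, interval 0.419 to 0.980), and this gene was picked with its values in view. After scaling to equal summed FPKM, the intervals of Eef2 (0.997 to 1.73) and Eef1a1 (0.941 to 1.87) included 1. Those of Eif5a (1.03 to 2.18) and Tpt1 (0.355 to 0.832) still excluded it. The 27 initiation factor genes had a median of 0.020 with 16 above 0, and none passed the threshold. Eif1, which helps choose the start codon, stood at 13.8 and 13.7 FPKM, and the helicase Eif4a1 at 10.8 and 10.2 FPKM. The 28 genes of ribosome biogenesis had a median of -0.030 with 12 above 0. Nop10, a component of snoRNA-protein particles, alone passed the threshold, at 4.49 and 10.2 FPKM (11 and 22 reads). It did not after scaling to equal summed FPKM, at a difference of 0.81. Nop10 reached the minimum of 5 FPKM in NeuroD1 alone. Gar1 of the same list ran the other way, at 4.49 and 1.496 FPKM (17 and 5 reads, interval 0.0961 to 0.941). Its difference was -1.14, but neither value reached 5 FPKM, so it was not called. Of the list, 3 genes had an interval above 1 and 2, Gar1 among them, an interval below it. The 15 genes of the mTORC1 axis had a median of 0.019 with 8 above 0, and none passed the threshold. Pdcd4, an inhibitor of Eif4a1, stood at 11.2 and 9.03 FPKM. The 78 mitochondrial ribosomal proteins, which serve the separate ribosome of mitochondria, had a median of -0.0021 with 38 above 0, 1 gene higher (Mrpl34) and 2 lower (Mrpl10 and Mrpl55). Mrpl10 stood at 7.16 and 2.40 FPKM (27 and 8 reads, ratio 0.336, interval 0.132 to 0.759), Mrpl55 at 6.61 and 2.0 FPKM (15 and 4 reads) and Mrpl34 at 1.49 and 5.07 FPKM (2 and 6 reads, interval 0.608 to 34.4). Scaled to equal summed FPKM, Mrpl34 was at 4.30 FPKM in NeuroD1, under the minimum.

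The members' median lay above that of protein-coding genes of like level in these ranges. At a mean of 2 to 5 FPKM, 38 members had a median of 0.14, against -0.029 over 10774 protein-coding genes. At 5 to 10 FPKM, 30 members had 0.15, against 0.033 over 4103 genes, and at 10 to 50 FPKM 9 members had 0.24, against 0.15 over 719 genes. By the share above 0 the order turned at 10 to 50 FPKM, with 66.7% of members against 69.7% of protein-coding genes. This share was 65.8% against 46.8% at 2 to 5 FPKM, and 63.3% against 53.9% at 5 to 10 FPKM. The 14 members with at most 5 pseudogenes had a median of 0.47 with 11 above 0, and the 69 with more had 0.12 with 42 above 0; this difference was not tested. Across 71 genes, the log2 read ratio of a gene and that of its pseudogenes had a Pearson r of -0.050.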

How the data were processed

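Expression was measured in 2 libraries, 1 per group. The authors deposited FPKM values for both libraries in 1 table. Per the submitters' processing notes, GRCm38 was the build, and the tools listed are featureCounts 1.6.3, Bowtie2 2.3.5.1 and an unversioned DESeq. Columns were matched to samples by treatment name. The members and gene lists were chosen with earlier results of these data known.

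Merged exon lengths came from GENCODE M21 (GRCm38), in which 53274 of 53465 genes were found. Reads were called recovered where FPKM times length was within 0.02 of a whole number of steps in both libraries, which held for 51076 genes (95.5%). Tested on simulated counts of 51076 genes for NeuroD1 against GFP, reads came back exactly for 100% of genes, intervals covered the true fold for 98% of 100 genes changed 2-fold and 97% of 100 changed 4-fold, and 13% and 58% passed the size rule. Only genes with recovered reads were simulated, from whole reads and the same steps, so exact recovery was fixed in advance. The counts carried counting error alone, so the coverage does not hold for the wider spread between the real libraries. Pseudogenes were assigned with blastn 2.17.0 (best match, at least 80% identity over at least 50% of the pseudogene; pseudogenes listed as protein-coding left out). The principal messenger RNA is the best-ranked APPRIS transcript. Genes named in full were those past the threshold or with an interval excluding 1, the 8 with the highest mean FPKM, the stalk genes, Rpsa, the paralogs, other ribosome genes outside the naming rule, and of the other lists up to 3 by mean FPKM and those past the threshold; others were named after their values were seen. Some items are not reported here. Alternatives were pseudocounts, FPKM minimums and scalings. Python 3.11.15, numpy 2.4.6, pandas 2.3.3, scipy 1.17.1 and matplotlib 3.10.9 were used.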

Additional observations from a re-analysis of the deposited data

How the results depend on the processing

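No paired analysis was possible because the GFP and NeuroD1 groups hold 1 library apiece, and leaving out a replicate was not possible either. The median difference of the 83 genes, 0.15, was 0.18 with a pseudocount of 0.1, 0.095 with 5, 0.093 at 5 FPKM in both libraries, -0.044 and -0.073 when the summed FPKM of all genes or of protein-coding genes was made equal, and 0.16 with median-of-ratios scaling. Chosen after seeing the data, it was 0.21 over genes with recovered reads and 0.14 without paralogs. In the order pseudocount 0.1, pseudocount 5, 5 FPKM in both, same sum over all genes, over protein-coding genes, and median of ratios, the large subunit median of 0.24 was 0.27, 0.14, 0.20, 0.032, 0.0048 and 0.25, and the small subunit median of 0.099 was 0.14, 0.046, 0.042, -0.073, -0.10 and 0.11, and 0.12 at 1 FPKM. The 3 higher genes were 1 with a pseudocount of 5 and with either same-sum scaling, and 0 at 5 FPKM in both. The count of 0 lower genes was 1, Rpl22l1, with no minimum or at 1 FPKM. The 53 genes above 0 were 39 and 36 with equal summed FPKM of all and of protein-coding genes, fewer than those below 0, and 18 at 5 FPKM in both libraries, where fewer genes are counted. The members' share of summed protein-coding FPKM, 0.0612% in GFP and 0.0591% in NeuroD1, was 0.0905% and 0.0929% in reads, and 0.526% and 0.604% without genes above 1000 FPKM, so that the lower share in NeuroD1 became a higher one. For shares and scalings the setting's own construction moves the value; elsewhere the cause was not tested. Of 110 recomputed differences of 22 named genes, 95 moved by less than 0.5 of the width of the counting interval, and 4 changed sign. The other 15 belong to Rpl7l1, Rpl8 and Rps14, which have no counting interval to set them against. The median gene rests on 20 and 21 reads, so small differences were not detectable at this depth.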
